A study of Mus musculus with 12 samples.

Results

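The 10 genes described here are Dtx3l and 9 genes of the poly(ADP-ribose) polymerase (PARP) family, measured by RNA sequencing in B16 cells, a mouse melanoma line. They were found by symbol among the 56093 entries of a table of gene counts, and all 10 were among the 14089 genes kept by the filter on low counts. Parp1, Parp2 and Parp3 were taken as the DNA repair genes. Parp8, Parp9, Parp10, Parp11, Parp12, Parp14 and Dtx3l were taken as the interferon-linked genes. The libraries formed 4 groups of 3: cells with a short hairpin RNA against Sdc1 given IFNγ (shSdc1 with IFNγ), cells with a control hairpin against RFP given IFNγ (shRFP with IFNγ), and the same lines left unstimulated (shSdc1 and shRFP). IFNγ was used at 10 ng/ml for 24 h, and every group carried a hairpin. Sdc1 encodes syndecan-1, a heparan sulfate proteoglycan of the cell surface. The labels give neither the number of hairpins used nor whether replicate libraries were grown as separate cultures. The p-values therefore reflect the spread between libraries alone, and that spread may be technical.

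PARP enzymes take ADP-ribose from NAD+ and attach it to proteins or nucleic acids. PARP1 and PARP2 build long chains of it at DNA breaks, which recruit repair proteins, whereas most other members attach single units or have lost the activity. Interferon acts through the STAT transcription factors, and several PARP genes are known interferon-stimulated genes whose products act against viruses or tune STAT signalling. The product of Dtx3l is a ubiquitin ligase of the Deltex family that works in a complex with PARP9.

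The libraries held 14337771 to 21548940 counts, and each of the 10 genes had between 74 and 9186 counts in a library. Sdc1 had 25.1 to 27.0 counts-per-million (CPM) in shSdc1 with IFNγ and 79.6 to 103 CPM in shRFP with IFNγ, and 22.1 to 25.7 CPM in shSdc1 and 73.9 to 76.4 CPM in shRFP. The ranges of the knockdown and control libraries of the hairpin's target were thus far apart. All 10 melanocyte markers looked at were expressed, with group means from 39.1 to 10220 CPM. In shSdc1 replicate 3, 4.79% of counts fell on the single entry ENSMUSG00000119584, against 0.0842 to 0.195% in the other 11 libraries, and leaving that library out changed no call on any of the 10 genes.

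IFNγ raised most of the 10 genes in both lines, and Parp14 by the largest fold among them. In shSdc1 cells 8 of the 10 genes rose with IFNγ, where 17.5% of all genes tested rose, and 1 fell, where 13.0% fell. In shRFP cells 8 rose, where 17.2% of all genes tested rose and 14.4% fell, and 2 did not pass. A call means an adjusted p under 0.05 in edgeR's quasi-likelihood test with Benjamini-Hochberg adjustment over all genes tested, and log2 fold changes are given ± SE and CPM levels ± SD of 3 libraries. The median log2 fold change of the 10 genes was 2.65 in shSdc1 cells and 2.51 in shRFP cells, where the medians over all genes were 0.0042 and -0.0058. The 10 genes were chosen with earlier results of these data known, 7 of them as interferon-linked. Their counts and medians beside those of all genes, here and below, are therefore descriptions and not tests. The 7 interferon-linked genes all rose in both lines, with log2 fold changes from 1.04 to 5.43 in shSdc1 cells and from 0.77 to 5.50 in shRFP cells. Of the 3 DNA repair genes, Parp3 rose in both lines, so the division by name did not match the response to IFNγ. Against a minimum log2 fold change of 1, 7 of the 10 genes passed in each line. Of the 14089 genes tested, 321 were higher and 2 lower against this minimum in shSdc1 cells, and 263 and 9 in shRFP cells.

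The knockdown was accompanied by smaller differences, mostly upward. Whether they came from the loss of Sdc1 or from another difference between the 2 lines was not tested. With IFNγ, 8 of the 10 genes were higher in shSdc1 cells than in shRFP cells, where 18.9% of all genes tested were higher, and 1 was lower, where 17.4% were lower. Without IFNγ, 7 of the 10 were higher, where 14.0% of all genes were higher and 14.6% lower, and 3 did not pass. The median log2 fold change of the 10 genes was 0.33 with IFNγ and 0.41 without, against 0.017 and 0 over all genes. The highest folds were 1.65 for Parp8 and 1.63 for Parp14 with IFNγ, and 1.70 for Parp14 without. The interaction, which tests whether the 2 lines differed in their response to IFNγ, was positive for 1 of the 10 genes, Parp11, where 4.58% of all genes passed upward, and negative for 1, Parp1, where 5.15% passed downward.

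Markers of the cells themselves differed with the knockdown, and some differed with IFNγ. Of 10 melanocyte markers, 9 were lower in shSdc1 than in shRFP cells with IFNγ, where 17.4% of all genes tested were lower. Without IFNγ all 10 were lower, where 14.6% of all genes were lower. With IFNγ over none, 1 of the 10 rose and 6 fell in shSdc1 cells, where 17.5% of all genes rose and 13.0% fell. In shRFP cells 1 rose and 2 fell, where 17.2% rose and 14.4% fell, so those counts are near the share over all genes. Of 17 markers of leukocytes, fibroblasts, endothelium and keratinocytes, 5 (Cd3e, Adgre1, Ncr1, Dcn and Krt5) had 0 counts in all 12 libraries and 3 (Cd68, Lyz2 and Pdgfra) passed the filter. Of those 3, Cd68 and Lyz2 were higher in shSdc1 than in shRFP cells both with and without IFNγ. IFNγ raised Cd68 1.99-fold in shSdc1 cells (edgeR adjusted p = 2.90e-05) and 2.53-fold in shRFP cells (edgeR adjusted p = 1.54e-05), and Pdgfra fell in shSdc1 cells (-0.62 ± 0.20 on the log2 scale, edgeR adjusted p = 0.0279). The summed level of the 17 was 18.3 to 19.6 CPM in shSdc1 with IFNγ, 8.78 to 10.6 CPM in shRFP with IFNγ, 11.97 to 13.0 CPM in shSdc1 and 6.08 to 7.18 CPM in shRFP. Cd68 alone had group means of 14.4, 6.32, 7.25 and 2.45 CPM in the same order of groups. Apart from Cd68, Lyz2 and Pdgfra, no marker had more than 26 counts over the 12 libraries together. The part of these markers in the responses to IFNγ and in the knockdown differences was not tested, and in bulk RNA fewer cells of a type cannot be told apart from less RNA per cell.

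**Figure D1:**
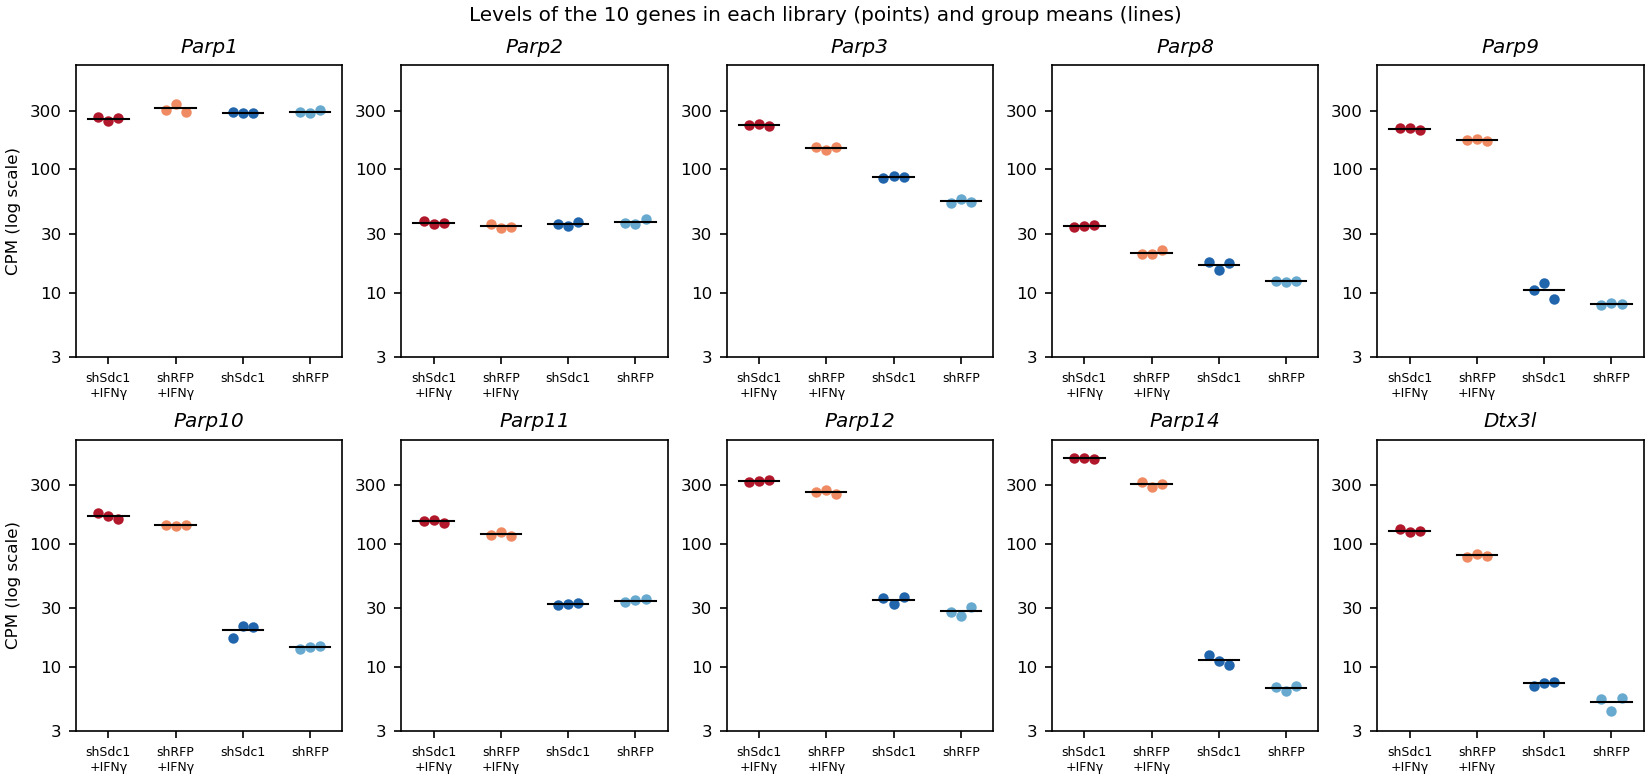
Level of each of the 10 genes in CPM on a log axis, with a point for each library and a line at the mean of its group of 3. Parp1 stayed between 245 and 338 CPM in all 12 libraries, while Parp14 stood between 6.35 and 12.6 CPM without IFNγ and between 286 and 495 CPM with it.

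Among the DNA repair genes, Parp1 encodes the main sensor of DNA strand breaks. It stood at 264, 245 and 260.2 CPM in shSdc1 with IFNγ and at 303, 338 and 295 CPM in shRFP with IFNγ. Without IFNγ it stood at 293, 285 and 287 CPM in shSdc1 and at 292, 287 and 306 CPM in shRFP. The 3 libraries of shSdc1 with IFNγ were the lowest of all 12, and the other 9 lay between 285 and 338 CPM. With IFNγ the log2 fold change of shSdc1 over shRFP was -0.28 ± 0.049 (edgeR adjusted p = 0.000157), and without IFNγ it was -0.030 ± 0.049 (edgeR adjusted p = 0.702). IFNγ lowered Parp1 in shSdc1 cells, with a log2 fold change of -0.17 ± 0.049 (edgeR adjusted p = 0.0118). That call ended without replicate 2 of shSdc1 with IFNγ, at -0.14 (edgeR adjusted p = 0.0755). In shRFP cells the log2 fold change with IFNγ was 0.082 ± 0.049 (edgeR adjusted p = 0.216). The interaction of -0.25 ± 0.07 (edgeR adjusted p = 0.0268) depended on single libraries. It no longer passed without shRFP replicate 1, shRFP replicate 2, shSdc1 replicate 1 or replicate 2 of shSdc1 with IFNγ, with edgeR adjusted p = 0.0641, 0.0728, 0.0707 and 0.0800 in that order.

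Parp2 encodes the other chain-building enzyme that answers strand breaks. It stood at 37.8, 36.0 and 36.8 CPM in shSdc1 with IFNγ, 36.1, 33.7 and 33.7 CPM in shRFP with IFNγ, 36.0, 34.4 and 37.2 CPM in shSdc1 and 36.6, 35.7 and 39.6 CPM in shRFP. The ranges of the groups overlapped in each comparison, and with TMM scaling no comparison passed by edgeR, nor at an unadjusted p under 0.05. Under upper-quartile scaling it was lower with IFNγ in shRFP cells (-0.16 on the log2 scale, edgeR adjusted p = 0.0431). With TMM scaling the log2 fold changes lay between -0.11 and 0.10 in the 4 comparisons between groups, each with an SE of 0.059.

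Parp3 encodes an enzyme that attaches single ADP-ribose units and takes part in the joining of double-strand breaks. It stood at 229, 232 and 223 CPM in shSdc1 with IFNγ and at 151, 145 and 152 CPM in shRFP with IFNγ. Without IFNγ it stood at 85.2, 88.3 and 86.9 CPM in shSdc1 and at 53.6, 57.5 and 54.8 CPM in shRFP. The 4 groups did not overlap, in that order from high to low. IFNγ raised it by 1.39 ± 0.043 on the log2 scale in shSdc1 cells (edgeR adjusted p = 2.50e-15) and by 1.43 ± 0.044 in shRFP cells (edgeR adjusted p = 3.05e-15). The knockdown difference was 0.61 ± 0.042 with IFNγ (edgeR adjusted p = 1.65e-09) and 0.65 ± 0.045 without (edgeR adjusted p = 2.11e-09). The interaction was -0.040 ± 0.061 (edgeR adjusted p = 0.735). The shift between the lines thus had nearly the same size with and without IFNγ, and no difference between these sizes was detectable. In the reference, 20 exonic bases of Parp3 are shared with Rrp9 on the opposite strand.

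Parp14, Parp9 and Dtx3l lie side by side on mouse chromosome 16 with no protein-coding gene between them. Parp14 encodes a large enzyme with macrodomains, which bind ADP-ribose, and is known in mice as a partner of STAT6. It stood at 493, 495 and 488 CPM in shSdc1 with IFNγ and at 318, 286 and 304 CPM in shRFP with IFNγ. Without IFNγ it stood at 12.6, 11.2 and 10.3 CPM in shSdc1 and at 6.79, 6.35 and 6.98 CPM in shRFP. No 2 groups overlapped, and the gene was the least abundant of the 10 per kilobase in both unstimulated groups. IFNγ raised it 43.2-fold in shSdc1 cells (log2 5.43 ± 0.064, edgeR adjusted p = 5.62e-22) and 45.1-fold in shRFP cells (log2 5.50 ± 0.067, edgeR adjusted p = 1.03e-21). The knockdown difference was 0.70 ± 0.049 on the log2 scale with IFNγ (edgeR adjusted p = 1.97e-09) and 0.76 ± 0.082 without (edgeR adjusted p = 7.76e-07). In order of log2 fold change Parp14 ranked 84 of 14089 genes in shSdc1 cells and 73 in shRFP cells for IFNγ over none.

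Parp9 encodes the macrodomain partner of the ubiquitin ligase DTX3L. It stood at 217, 215 and 208 CPM in shSdc1 with IFNγ and at 173, 178 and 169.7 CPM in shRFP with IFNγ. Without IFNγ it stood at 10.4, 11.9 and 8.80 CPM in shSdc1 and at 7.93, 8.25 and 8.02 CPM in shRFP. The 2 lines were apart in both conditions, though shSdc1 replicate 3 came close to the shRFP libraries. IFNγ raised Parp9 20.5-fold in shSdc1 cells (edgeR adjusted p = 5.75e-20) and 21.5-fold in shRFP cells (edgeR adjusted p = 7.82e-20). The knockdown difference was 0.30 ± 0.054 on the log2 scale with IFNγ (edgeR adjusted p = 0.000263). Without IFNγ it was 0.37 ± 0.090 (edgeR adjusted p = 0.00454), and this call ended without shSdc1 replicate 2, at 0.26 (edgeR adjusted p = 0.0668).

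Dtx3l, the ubiquitin ligase of the pair, stood at 131, 124 and 127 CPM in shSdc1 with IFNγ and at 77.9, 83.0 and 79.9 CPM in shRFP with IFNγ. Without IFNγ it stood at 6.99, 7.44 and 7.57 CPM in shSdc1 and at 5.47, 4.39 and 5.60 CPM in shRFP. The 4 groups did not overlap. Its response to IFNγ was 17.3-fold in shSdc1 cells (edgeR adjusted p = 1.08e-19) and 15.5-fold in shRFP cells (edgeR adjusted p = 5.49e-19). The knockdown difference was 0.66 ± 0.053 on the log2 scale with IFNγ (edgeR adjusted p = 1.23e-08) and 0.51 ± 0.096 without (edgeR adjusted p = 0.000517).

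Parp9 and Dtx3l are transcribed head to head and overlap, and reads in the overlap make part of the count of each uncertain. They share 458 exonic bases on opposite strands, 9.4% of the exonic length of Parp9 and 8% of that of Dtx3l, and the strand setting of the counting is not given in the sources used here. Of the annotated transcripts, 4 of 7 of Parp9 and 2 of 2 of Dtx3l start within the same window, which RefSeq places at chr16:35938978-35939277 (GRCm38.p6, minus strand) as the promoter of Dtx3l. The window is shown because the start sites of both genes lie in it. It holds no match in either strand to the gamma-activated site core TTCNNNGAA (GAS) or to the interferon response element core, made of GAAA, any 2 bases and GAAA (ISRE), which says only that these letters are not in this window.
Dtx3l: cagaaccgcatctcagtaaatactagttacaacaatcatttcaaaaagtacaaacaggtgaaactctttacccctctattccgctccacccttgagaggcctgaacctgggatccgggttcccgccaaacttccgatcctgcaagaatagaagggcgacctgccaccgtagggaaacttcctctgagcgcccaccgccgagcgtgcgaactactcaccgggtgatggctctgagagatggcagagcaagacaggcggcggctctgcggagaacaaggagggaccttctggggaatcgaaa

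The ratio of Parp9 CPM to Dtx3l CPM was 1.66, 1.74 and 1.64 in shSdc1 with IFNγ and 2.22, 2.14 and 2.12 in shRFP with IFNγ. Without IFNγ it was 1.50, 1.61 and 1.16 in shSdc1 and 1.45, 1.88 and 1.43 in shRFP. With IFNγ the lines did not overlap, at 1.68 ± 0.0509 in shSdc1 and 2.16 ± 0.0536 in shRFP (SD, n = 3 each), while without it they did. This follows the larger knockdown difference of Dtx3l than of Parp9 with IFNγ, given above, and was not tested on its own.

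**Figure D2:**
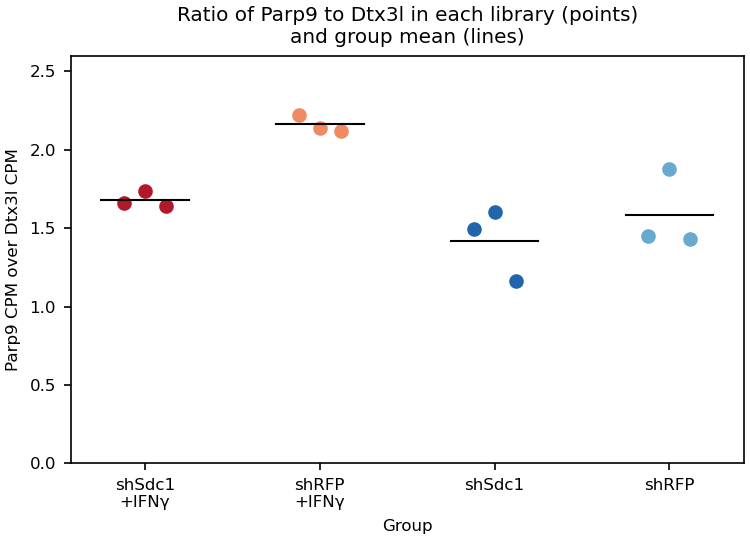
Ratio of Parp9 CPM to Dtx3l CPM, with a point for each library and a line at the mean of its group. With IFNγ the shSdc1 libraries lay between 1.64 and 1.74 and the shRFP libraries between 2.12 and 2.22, while the unstimulated groups overlapped.

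Parp12 and Parp10 followed each other most closely of the 10 genes, with a root mean square difference of 0.13 between their centred log2(CPM + 0.5) values over the 12 libraries. Parp12 encodes a zinc-finger enzyme that attaches single ADP-ribose units and has antiviral activity. It stood at 313, 322 and 327 CPM in shSdc1 with IFNγ, 264, 274 and 251 CPM in shRFP with IFNγ, 36.3, 32.3 and 36.9 CPM in shSdc1 and 27.7, 26.0 and 30.6 CPM in shRFP. Each line was clear of the other in both conditions. IFNγ raised it 9.12-fold in shSdc1 cells (edgeR adjusted p = 9.57e-19) and 9.37-fold in shRFP cells (edgeR adjusted p = 1.00e-18), and the knockdown difference was 0.29 ± 0.053 on the log2 scale with IFNγ (edgeR adjusted p = 0.000357) and 0.33 ± 0.065 without (edgeR adjusted p = 0.000794). Parp10 encodes a mono-ADP-ribosyltransferase, known in human cells as a partner of MYC. It stood at 178, 168 and 158 CPM in shSdc1 with IFNγ, 143, 138 and 141 CPM in shRFP with IFNγ, 17.3, 21.4 and 21.1 CPM in shSdc1 and 13.9, 14.6 and 14.9 CPM in shRFP. No 2 groups overlapped. IFNγ raised it 8.44-fold in shSdc1 cells (edgeR adjusted p = 1.02e-17) and 9.75-fold in shRFP cells (edgeR adjusted p = 6.81e-18), and the knockdown difference was 0.26 ± 0.058 on the log2 scale with IFNγ (edgeR adjusted p = 0.00187) and 0.46 ± 0.079 without (edgeR adjusted p = 0.000188). In the reference, 205 exonic bases of Parp10, 4.8% of its exonic length, are shared with Plec on the same strand, so part of its count is uncertain.

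Parp11 encodes a mono-ADP-ribosyltransferase of the nuclear envelope, and it was the 1 interferon-linked gene that did not pass for the knockdown without IFNγ. It stood at 152, 155 and 148 CPM in shSdc1 with IFNγ and at 117, 123 and 115 CPM in shRFP with IFNγ. Without IFNγ it stood at 31.5, 32.1 and 33.2 CPM in shSdc1 and at 33.3, 34.6 and 35.5 CPM in shRFP. With IFNγ every shSdc1 library was above every shRFP library, and without it every shSdc1 library was below. The log2 fold change of shSdc1 over shRFP was 0.35 ± 0.044 with IFNγ (edgeR adjusted p = 3.90e-06) and -0.093 ± 0.051 without (edgeR adjusted p = 0.194), and the second did not pass. The response to IFNγ was 4.70-fold in shSdc1 cells (edgeR adjusted p = 7.30e-18) and 3.44-fold in shRFP cells (edgeR adjusted p = 2.95e-16). The difference between these responses was 0.45 ± 0.07 on the log2 scale (edgeR adjusted p = 0.000471), and it passed in all 19 alternatives without a fold minimum, with adjusted p from 2.75e-05 to 0.00336.

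Of the 10 genes, 7 have a promoter window in the RefSeq set used here, in 8 windows of 300 bases around annotated starts. Parp9, Parp10 and Parp14, among them the gene with the largest response to IFNγ, have no window of their own in that set. The first window of Parp11, chr6:127446590-127446889 (GRCm38.p6, plus strand), is the 1 of these 8 that holds either motif, and it holds both. Its GAS core covers bases 214 to 222 and its ISRE core, on the other strand, bases 207 to 216, so the matches overlap; capitals mark the run they cover. Among all 32851 promoter windows, 8.3% hold a GAS core, 3.44% an ISRE core and 0.454% both. The window of Parp12, chr6:39118300-39118599 (GRCm38.p6, minus strand), is shown beside it for a gene whose response to IFNγ was larger and whose window holds neither. No match says only that these letters are not in that window, and a match is a description of the letters.
Parp11: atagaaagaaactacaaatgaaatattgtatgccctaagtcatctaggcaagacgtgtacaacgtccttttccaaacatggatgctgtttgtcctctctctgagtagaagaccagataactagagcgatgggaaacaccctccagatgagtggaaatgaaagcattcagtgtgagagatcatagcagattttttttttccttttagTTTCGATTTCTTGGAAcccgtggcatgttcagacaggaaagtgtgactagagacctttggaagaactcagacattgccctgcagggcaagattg
Parp12: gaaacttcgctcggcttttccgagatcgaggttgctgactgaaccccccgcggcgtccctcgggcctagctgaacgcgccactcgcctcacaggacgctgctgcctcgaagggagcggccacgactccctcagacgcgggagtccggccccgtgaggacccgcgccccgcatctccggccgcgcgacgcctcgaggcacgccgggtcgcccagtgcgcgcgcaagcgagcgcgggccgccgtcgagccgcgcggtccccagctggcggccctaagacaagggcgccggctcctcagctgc

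Parp8, a member of the mono-ADP-ribosyltransferase branch with no settled function, had the smallest response of the interferon-linked genes in both lines. It stood at 34.1, 34.5 and 35.3 CPM in shSdc1 with IFNγ, 20.4, 20.6 and 22.2 CPM in shRFP with IFNγ, 17.6, 15.3 and 17.5 CPM in shSdc1 and 12.4, 12.2 and 12.4 CPM in shRFP. The groups did not overlap. IFNγ raised it 2.06-fold in shSdc1 cells (edgeR adjusted p = 7.04e-10) and 1.71-fold in shRFP cells (edgeR adjusted p = 2.14e-07). The knockdown difference was 0.72 ± 0.069 on the log2 scale with IFNγ (edgeR adjusted p = 1.56e-07) and 0.45 ± 0.077 without (edgeR adjusted p = 0.000209), and the interaction, 0.27 ± 0.10, did not pass (edgeR adjusted p = 0.104).

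**Figure D3:**
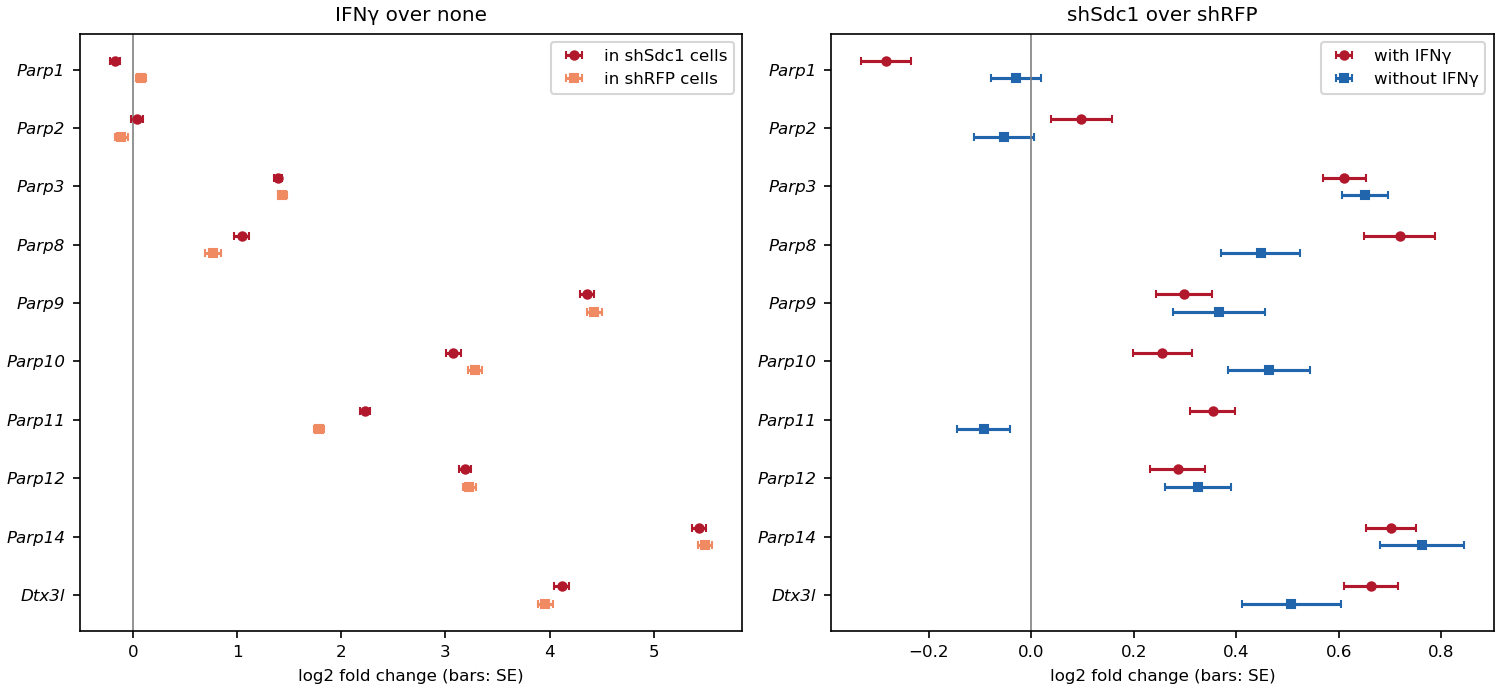
Log2 fold change of each gene with its SE as a bar, for IFNγ over none in each line (left) and for shSdc1 over shRFP in each condition (right), on axes of different range. The responses to IFNγ reach 5.50 for Parp14, whereas the knockdown differences lie between -0.28 for Parp1 and 0.76 for Parp14.

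Between genes, levels were compared as CPM per kilobase of exonic sequence. The order of the 10 genes on this scale differed between stimulated and unstimulated cells. In shSdc1 with IFNγ, Parp12 came first at 80.3 ± 1.69 CPM per kilobase, followed by Parp3 at 61.6 ± 1.23, Parp14 at 52.9 ± 0.389, Parp1 at 48.4 ± 1.85, Parp9 at 43.8 ± 0.994 and Parp10 at 39.3 ± 2.36. Dtx3l and Parp11 followed with overlapping ranges, and Parp2 and Parp8 were lowest. In shRFP with IFNγ, Parp12 at 65.9 ± 2.93 CPM per kilobase overlapped with Parp1 at 58.9 ± 4.39, ahead of Parp3 at 40.4 ± 1.10 and Parp9 at 35.6 ± 0.824, and Parp10 overlapped with Parp14. Without IFNγ, Parp1 came first in both lines, at 54.5 ± 0.787 CPM per kilobase in shSdc1 and 55.7 ± 1.83 in shRFP, and Parp3 second, at 23.5 ± 0.427 and 14.9 ± 0.537. Parp14 was last in both unstimulated groups, at 1.22 ± 0.122 CPM per kilobase in shSdc1, where its range overlapped with that of Dtx3l, and 0.721 ± 0.0349 in shRFP, where it did not.

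The summed level of the 10 genes was 384 ± 3.78 CPM per kilobase in shSdc1 with IFNγ, 309 ± 6.28 in shRFP with IFNγ, 112 ± 0.745 in shSdc1 and 101 ± 3.04 in shRFP (SD, n = 3 each). Parp1 made up 12.6% of that sum in shSdc1 with IFNγ, 19.1% in shRFP with IFNγ, 48.5% in shSdc1 and 55.2% in shRFP. Parp14 made up 13.8%, 10.5%, 1.09% and 0.714% in the same order of groups. Transcripts of the single-unit and macrodomain members thus made up most of the summed level of the 10 genes with IFNγ, whereas Parp1 was the largest single share without it. The other PARP family genes are not in this sum. Parp12 alone made up 20.9% of the sum in shSdc1 with IFNγ and 21.3% in shRFP with IFNγ, and 7.82% in shSdc1 and 6.97% in shRFP.

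**Figure D4:**
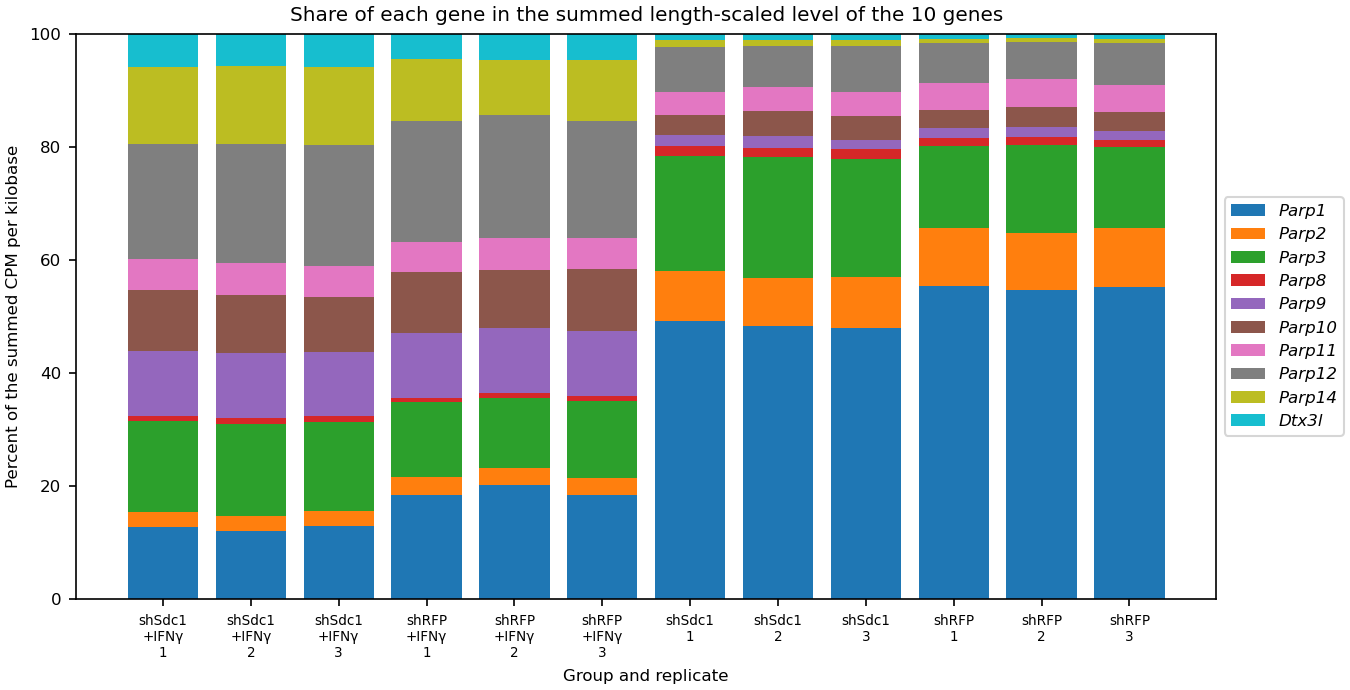
Share of each gene in the summed CPM per kilobase of the 10 genes, with a stacked bar for each library. Parp1 makes up between 48.0 and 55.5% of the sum in the unstimulated libraries and between 12.1 and 20.3% in those with IFNγ.

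Among the other PARP family genes, Zc3hav1, Parp4, Tiparp and Tnks rose with IFNγ in both lines. With the knockdown, in both conditions, Tiparp and Zc3hav1 were higher and Tnks and Tnks2 lower. Of 7 (Parp4, Parp6, Parp16, Tiparp, Zc3hav1, Tnks and Tnks2), 4 rose with IFNγ in shSdc1 cells and 3 did not pass, and in shRFP cells 4 rose, 1 fell and 2 did not pass. Over all genes tested, 17.5% rose and 13.0% fell in shSdc1 cells, and 17.2% rose and 14.4% fell in shRFP cells, so the 1 gene that fell is near the share over all genes. The median log2 fold change of the 7 was 0.22 in shSdc1 cells and 0.33 in shRFP cells. Zc3hav1, which encodes the antiviral protein ZAP, rose by 0.88 ± 0.039 on the log2 scale in shSdc1 cells (edgeR adjusted p = 9.97e-13) and by 0.72 ± 0.040 in shRFP cells (edgeR adjusted p = 3.25e-11). Parp4, the PARP of vault particles, rose by 0.79 ± 0.093 and 0.54 ± 0.095 in the same order. With the knockdown, 3 of the 7 were higher and 2 lower with IFNγ, where 18.9% of all genes tested were higher and 17.4% lower. Without IFNγ 2 were higher and 2 lower, where 14.0% of all genes were higher and 14.6% lower. Tiparp, a target of the aryl hydrocarbon receptor, was higher in shSdc1 cells with IFNγ (0.62 ± 0.067, edgeR adjusted p = 7.06e-07) and without (0.51 ± 0.068, edgeR adjusted p = 1.31e-05). Zc3hav1 was also higher with IFNγ (0.28 ± 0.039, edgeR adjusted p = 1.43e-05) and without (0.12 ± 0.040, edgeR adjusted p = 0.0326). Parp4 was higher with IFNγ (0.25 ± 0.090, edgeR adjusted p = 0.0387). The tankyrase genes Tnks and Tnks2, whose products attach ADP-ribose chains to axin, were lower in both conditions, with log2 fold changes of -0.34 ± 0.043 and -0.38 ± 0.041 with IFNγ and of -0.23 ± 0.043 and -0.50 ± 0.041 without.

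Of the other Deltex genes and ligases that read ADP-ribose chains, 4 of 6 were tested. Dtx3 fell with IFNγ in shRFP cells (-0.29 ± 0.057 on the log2 scale, edgeR adjusted p = 0.000714) and was lower in shSdc1 than in shRFP cells without IFNγ (-0.27 ± 0.056, edgeR adjusted p = 0.00113). Dtx2, Rnf146 and Chfr passed in none of the comparisons. Over all genes tested, 14.4% fell with IFNγ in shRFP cells and 14.6% were lower in shSdc1 than in shRFP cells without IFNγ. So 1 gene of 4 in each of these comparisons does not set the list apart.

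Among genes that supply NAD+, Nampt, the rate-limiting enzyme of NAD+ salvage, rose with IFNγ to 357 ± 5.51 CPM in shSdc1 cells, against 177 ± 2.57 CPM without it (edgeR adjusted p = 7.02e-14), and to 379.5 ± 11.2 CPM in shRFP cells, against 214 ± 5.78 CPM (edgeR adjusted p = 2.08e-12). Of the 13 NAD genes tested it was the 1 gene that rose in each line, while 1 fell in shSdc1 cells and 3 fell in shRFP cells. Over all genes tested 17.5% rose and 13.0% fell in shSdc1 cells, and 17.2% rose and 14.4% fell in shRFP cells, so the counts do not show a change of the NAD genes as a group. Of 10 genes that remove or read ADP-ribose, 1 was higher and 4 were lower in shSdc1 than in shRFP cells with IFNγ, where 18.9% of all genes tested were higher and 17.4% lower. The higher was Parg, which breaks down the chains, at 0.18 ± 0.051 on the log2 scale (edgeR adjusted p = 0.00947), a call that ended without replicate 2 of shSdc1 with IFNγ (0.14, edgeR adjusted p = 0.0721). Among the lower were Macrod1, which removes single units, at -0.62 ± 0.13 (edgeR adjusted p = 0.00112), and Adprh, which cleaves ADP-ribose from arginine, at -0.50 ± 0.052 (edgeR adjusted p = 4.68e-07). Without IFNγ 1 was higher and 2 were lower, where 14.0% of all genes were higher and 14.6% lower, so those counts are near the share. The higher was again Parg (0.14 ± 0.050, edgeR adjusted p = 0.0392). The lower were Adprh (-0.43 ± 0.053, edgeR adjusted p = 4.05e-06) and Nudt16 (-0.87 ± 0.13, edgeR adjusted p = 3.09e-05). Cd38, an NAD+-consuming enzyme of the cell surface below the abundance set for naming genes and named here after its values were seen, was higher in shSdc1 cells by 3.06 ± 0.51 on the log2 scale with IFNγ (edgeR adjusted p = 0.000117), at 0.980 ± 0.200 CPM in shSdc1 and 0.110 ± 0.0764 CPM in shRFP.

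Of 16 genes that work with PARP1 in strand break and base excision repair, 6 were lower and 1 higher in shSdc1 than in shRFP cells with IFNγ, where 17.4% of all genes tested were lower and 18.9% higher. Without IFNγ 2 were lower and 1 higher, where 14.6% of all genes were lower and 14.0% higher, so those counts are no more than the share over all genes. Their median log2 fold change was -0.13 with IFNγ and 0.030 without. Tdp1, which frees trapped topoisomerase I from DNA, was lower, at -0.53 ± 0.062 on the log2 scale with IFNγ (edgeR adjusted p = 2.05e-06) and -0.26 ± 0.062 without (edgeR adjusted p = 0.00361). Chd1l, a chromatin remodeller that binds ADP-ribose chains, was lower, at -0.48 ± 0.066 (edgeR adjusted p = 1.31e-05) and -0.49 ± 0.066 (edgeR adjusted p = 1.61e-05) in the same order. The gene that was higher with IFNγ was Polb, the repair polymerase, at 0.29 ± 0.062 (edgeR adjusted p = 0.00115).

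**Figure D5:**
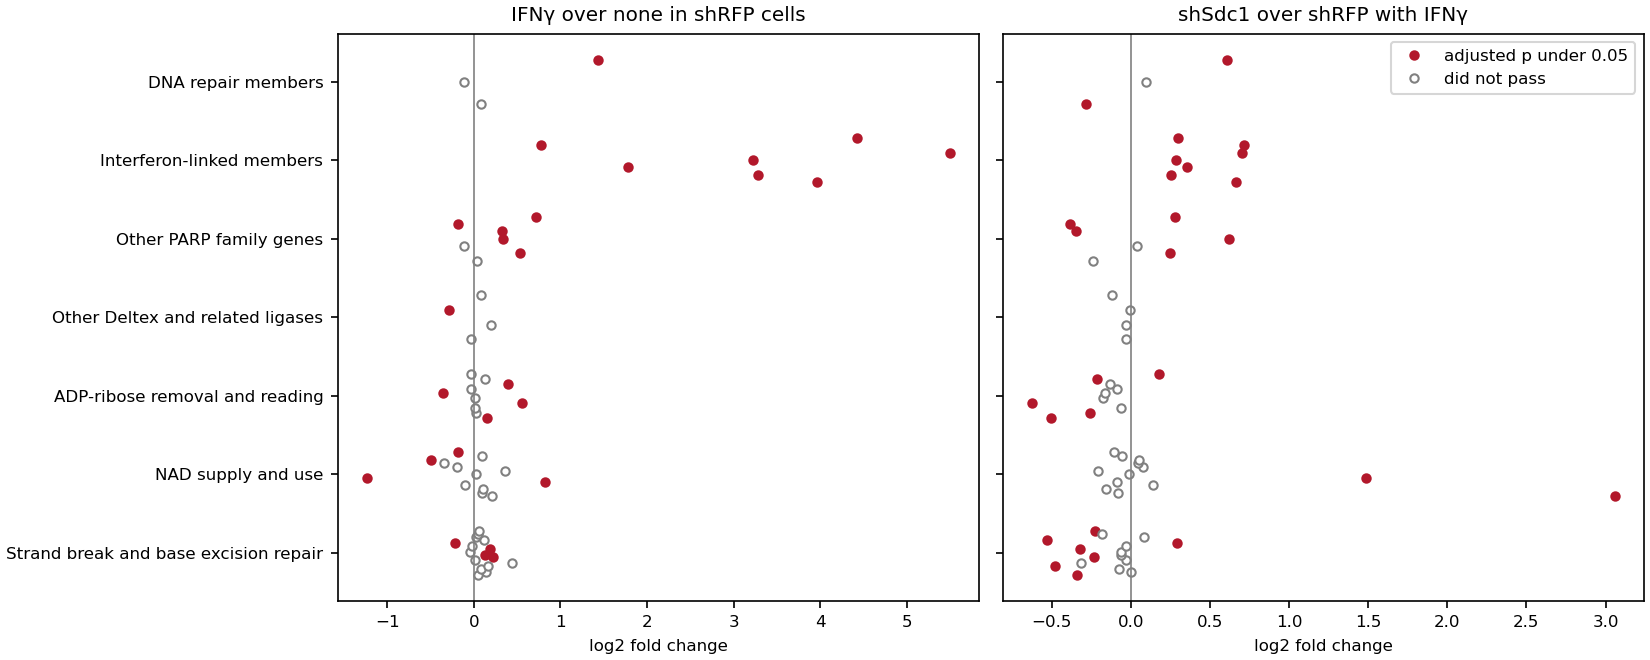
Log2 fold change of each gene of the members' groups and of the other lists, for IFNγ over none in shRFP cells (left) and shSdc1 over shRFP with IFNγ (right), with filled points for genes that passed. The interferon-linked genes reach 5.50 on the left and lie between 0.26 and 0.72 on the right, where 6 of the 16 strand break repair genes passed below 0.

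By the same root mean square difference of centred log2(CPM + 0.5) values over the 12 libraries, the genes whose pattern was closest to each member were as follows. Parp14 was nearest to Xaf1 (0.12) and Ifit3 (0.18), Dtx3l to H2-T22 (0.12) and Tapbp (0.20), and Parp9 to H2-T23 (0.23). Parp10 was nearest to Ifi35 (0.15) and Parp12 to Trim21 (0.15). Parp11 was nearest to the tubulin gene Tubb3 (0.10), Parp8 to Daxx (0.091) and Parp3 to the galectin gene Lgals9 (0.12). Parp1 was nearest to Ppp1ca (0.026) and Parp2 to Tmem259 (0.043), both members with small ranges over the libraries, for which a small difference is easier to reach. Within the 10 genes, the closest partner of Parp9 and of Dtx3l was the other (0.27), that of Parp3 and of Parp8 likewise (0.28), and that of Parp14 was Parp9 (0.57).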

How the data were processed

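The 12 libraries were assigned to 4 groups of 3 by their labels. The authors deposited whole-number read counts for each gene, not normalized. Per the submitters' processing notes the tools were Trimmomatic, HISAT2 (version 2.0.5) and HTSeq, with GRCm39 as the build; annotation and strand setting are not given there. Symbols, exonic lengths and overlaps were read from GENCODE M21 (GRCm38) and promoter windows from RefSeq (GRCm38.p6), matched by symbol only; 52083 of 56093 entries had a symbol.

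Counts were scaled by TMM and filtered by filterByExpr (minimum count 10, minimum total 15). Using edgeR 4.0.16 under R 4.3.3, all 12 libraries entered a single quasi-likelihood fit in which each group had its own coefficient, with 8 residual degrees of freedom. There were 5 two-sided comparisons. P-values were adjusted over 14089 genes by Benjamini-Hochberg at 0.05, with no fold minimum. Each SE was computed by dividing the absolute log2 fold change by the square root of the F statistic. Levels are TMM-scaled CPM as mean ± SD.

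The alternatives comprised upper-quartile scaling, scaling by size factors of DESeq2 1.42.0, its Wald test, limma-voom (limma 3.58.1), no filter, a filter of 1 CPM, the compared groups alone, a replicate block, a log2 fold minimum of 1 and leaving out each of the 12 libraries. The fit was tested on simulated data. No 2 libraries of a group agreed within sampling noise. The members and lists were chosen with earlier results of these data known. Genes of the other lists could be named if they passed with group means of at least 1 CPM, up to 3 in each direction by size, and up to 3 genes of like pattern per member; some results are not reported here. Tables and figures were made with Python 3.11.15, pandas 2.3.3 and matplotlib 3.10.9.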

Additional observations from a re-analysis of the deposited data

Results flagged for a closer look

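The response to IFNγ differed between the lines, by the interaction term of edgeR's quasi-likelihood test, for 2 of the 10 genes. Over all genes tested, 4.58% passed upward and 5.15% passed downward. So small a count does not set the 10 genes apart as a group. The difference, shSdc1 minus shRFP on the log2 scale, was 0.45 ± 0.07 for Parp11 (edgeR adjusted p = 0.000471) and -0.25 ± 0.07 for Parp1 (edgeR adjusted p = 0.0268). The call on Parp11 held without each of the 12 libraries in turn, and that on Parp1 ended in 4 of these fits.

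With 4.58% of all genes tested passing upward and 5.15% downward, some passing genes would be found in any long list. Of the other genes looked at, 10 that passed the same test are given here, chosen because they passed. It was positive for Stat2 (0.50 ± 0.088, edgeR adjusted p = 0.00182) and negative for Irf1 (-0.55 ± 0.10, edgeR adjusted p = 0.00194), Pcna (-0.35 ± 0.06, edgeR adjusted p = 0.000699) and Lig1 (-0.29 ± 0.07, edgeR adjusted p = 0.0101), and these 4 calls held without each library in turn. The other 6 calls each ended when single libraries were left out. Usp18, an inhibitor of interferon signalling, was at 1.08 ± 0.27 (edgeR adjusted p = 0.0177) and its call ended in 2 of the 12 fits, with 0.84 and adjusted p = 0.0605 without shSdc1 replicate 1. Nudt16, a hydrolase that can act on ADP-ribose, was at 0.71 ± 0.18 (edgeR adjusted p = 0.0188), ending in 2 fits, with 0.66 and adjusted p = 0.0539 without shRFP replicate 1. Polb was at 0.34 ± 0.09 (edgeR adjusted p = 0.0186), ending in 4 fits, with 0.28 and adjusted p = 0.0588 without replicate 2 of shRFP with IFNγ. Xrcc1 was at -0.25 ± 0.07 (edgeR adjusted p = 0.0426), ending in 8 fits, with -0.23 and adjusted p = 0.111 without shRFP replicate 1. Dtx3 was at 0.27 ± 0.08 (edgeR adjusted p = 0.0437), ending in 9 fits, with 0.20 and adjusted p = 0.138 without shRFP replicate 2. Nampt was at 0.19 ± 0.05 (edgeR adjusted p = 0.0367), ending in 10 fits, with 0.17 and adjusted p = 0.101 without shRFP replicate 1.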

How the results depend on the processing

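Of 990 log2 fold changes of the 10 genes under the alternatives without a fold minimum, 982 kept their call and 0 changed sign with a call. Under upper-quartile scaling, which shifted the median of all genes by -0.043 (shSdc1) and -0.053 (shRFP) in the IFNγ comparisons, the members lower with IFNγ in shRFP cells numbered 1, Parp2 (-0.16, edgeR adjusted p = 0.0431). With the replicate number as a block, the members with a negative interaction numbered 0 (Parp1, edgeR adjusted p = 0.0523). Libraries with the same number did not deviate together (correlations from -0.0961 to 0.0542, and 1 of 12 libraries closest to its own number), so the numbers were not taken as pairs. With a log2 fold minimum of 1, 321 genes were higher and 2 lower with IFNγ in shSdc1 cells and 263 and 9 in shRFP cells, 183 and 26 were higher and lower in shSdc1 with IFNγ and 84 and 28 without, and 0 and 0 in the interaction; the members passing numbered 7 in each IFNγ comparison and 0 in the others (edgeR; 0 also at an unadjusted p under 0.05). Leaving out each library in turn gave 373 to 943 genes with a positive and 416 to 1056 with a negative interaction, members with a negative interaction of 0 to 1, and members lower with IFNγ in shSdc1 cells of 0 to 1. The cause of these changes was not tested. Of 120 mean levels under other scalings, 113 moved by under 1 SD, and the largest change was 2.64%. The compared groups alone could not be run for the interaction, which uses all groups. Libraries of 3 per group, of which nothing says they are separate cultures, the unknown strand setting and the absence of protein data limit these results.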
